A study of Mus musculus with 2 samples.

Results

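Granins and prohormone convertases are proteins of the regulated secretory pathway, and 9 of the 55487 genes in the count table were followed here by symbol: Chga, Chgb, Scg2, Scg5, Resp18, Pcsk1, Pcsk2, Pcsk5 and Cpe. All 9 were detected. The study asked, by its title, how Hnf4 acts on gut and liver genes in the thymus. It sorted medullary thymic epithelial cells with low MHC class II (mTEClo) that lacked surface Pdpn and CD104 from C57BL/6 mice after magnetic removal of CD45+ cells, and read them in 1 droplet run, in which DNA-tagged antibodies (hash tags) marked 7 samples. The 3 control samples, Hnf4ctrl, carried Foxn1(cre/+) with Hnf4a(fl/+) and Hnf4g(+/-), so the controls too had the Cre, 1 floxed copy of Hnf4a and 1 null copy of Hnf4g. The 4 mutant samples, Hnf4dTEC, carried Foxn1(cre/+) with Hnf4a(fl/fl) and Hnf4g(-/-). Foxn1 drives the Cre in thymic epithelial cells, while the Hnf4g allele is written as a plain null, not as a floxed one. The labels give neither age nor sex and do not state that samples came from separate animals; p-values therefore measure only the spread between these samples.

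Neurons and endocrine cells store peptide hormones in dense-core granules. Granins are acidic proteins that help such granules form and are themselves cut into peptides; Chga and Chgb, the chromogranins, and Scg2, the precursor of secretoneurin, belong to them. Scg5 is a chaperone that keeps the convertase Pcsk2 from acting too early, and Resp18 is a protein of the endocrine secretory pathway. Pcsk1 and Pcsk2 are the convertases of neuroendocrine granules and cut prohormones at pairs of basic residues, Pcsk5 is a convertase of many epithelia that also acts on growth factor precursors, and Cpe is the carboxypeptidase that trims the basic residues left behind. In the thymus a set of medullary epithelial cells, called mimetic cells, takes on gene programs of peripheral tissues, and one of these programs is neuroendocrine.

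The stretches of promoter shown here carry the element TGACGTCA, the palindrome that cAMP-responsive factors bind, or its core TGACGT. It was chosen because Chga, Chgb, Scg2, Scg5 and Pcsk1 share it, so its counts among the members, given below, only describe. The sequences searched for Pcsk2, Pcsk5 and Resp18 held no match. Sequences were taken from RefSeq promoter windows in GRCm38.p6, which held 8 of the 9 genes, all but Cpe, and the 250 bases before the start were searched on both strands. Capitals mark the element, on the strand of the gene.
Chga: ggggcggtcctaTGACGTaatttcctgggt
Chgb: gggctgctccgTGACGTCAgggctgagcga
Scg2: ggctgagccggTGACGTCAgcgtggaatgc
Scg5: aaaggaggtaaaTGACGTtcataggggtcg
Pcsk1: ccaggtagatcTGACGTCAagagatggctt
These lie at chr12:102554885-102554914 on the plus strand for Chga, chr2:132781559-132781588 on the plus strand for Chgb and chr1:79440076-79440105 on the minus strand for Scg2. The stretch of Scg5 lies at chr2:113829249-113829278 on the minus strand and that of Pcsk1 at chr13:75089768-75089797 on the plus strand. The element began 44 bases before the RefSeq start in Chga, 72 in Chgb, 68 in Scg2, 175 in Scg5 and 78 in Pcsk1. Those of Chgb and Scg2 fall inside the GENCODE gene, whose start lies further upstream. TGACGTCA stood in 3 of the 8 windows, against 1.55% of 32851 windows, and TGACGT, which TGACGTCA contains, in 5 of 8, against 6.47%. CAAAGTCCA, a form of the site of Hnf4 receptors, stood in 0 of 8, against 0.384%, and the GC box GGGCGG in 5 of 8, against 32.7%. A match describes the sequence and shows no binding.

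The samples held 801 to 1652 annotated cells and 10127838 to 25821970 UMIs (a UMI marks 1 captured RNA molecule), with medians of 11528 to 15053 UMIs per cell. Levels are given in CPM, counts per 1000000 UMIs of the same cells, and are compared across classes of cells within a gene, since counts of transcript ends carry no length by which genes could be set against each other. Over all cells Hnf4g was at 116 to 122 CPM in control and 78.1 to 88.4 CPM in mutant samples, and Hnf4a at 1.68 to 3.18 and 0.673 to 2.27 CPM; reads come from the end of the transcript, so they do not check the deletion. Classes are those of the authors' cell table. Of 9 neuroendocrine markers that are not members, 8 were highest in the class the authors call Neuroendocrine; the exception, Neurod1, was at 15.1 CPM there. All 6 tuft markers were highest in the Tuft class and 4 of 5 microfold markers in the Microfold class. For Entero-hepato cells it was 3 of 5 markers. Entero-hepato cells numbered 8, 19 and 55 among control samples and 2, 1, 0 and 0 among mutant ones. Markers of thymocytes, fibroblasts and endothelial cells summed to at most 6.15, 23.9 and 6.34 CPM over all cells. Those of myeloid and B cells were higher, at 199 to 341 CPM over all cells, 284 to 573 CPM in Neuroendocrine and 41.3 to 115 CPM in Tuft cells over the 7 samples; their part in the results was not tested.

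Chga, Chgb, Scg2 and Pcsk1 marked Neuroendocrine cells, Scg5 and Resp18 were spread over several classes, and Pcsk5 and Cpe were highest in other classes. Of 12556 Chga UMIs, 47.0% came from Neuroendocrine cells, which made up 7.70% of cells and 6.88% of all UMIs. This share ran from 24.2% to 85.0% over the 7 samples and was 76.7% without 5 cells rich in Pth, described further on. Neuroendocrine cells gave 73.2% of UMIs for Chgb, 82.2% for Scg2 and 87.8% for Pcsk1. The share was 38.4% for Scg5, 34.8% for Resp18, 27.5% for Pcsk2, 20.02% for Cpe and 2.50% for Pcsk5. The authors' classes were made from expression, so these shares describe the classes and were not tested.

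**Figure D1:**
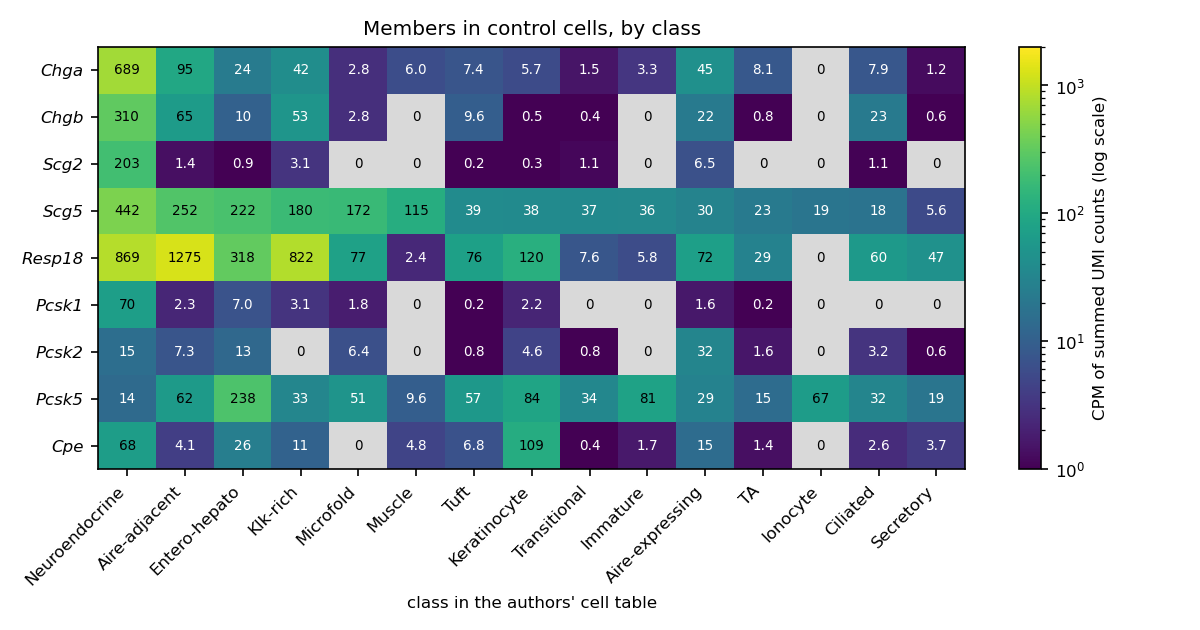
Level of each gene (rows) in each class of the authors' cell table (columns, ordered by Scg5) in control cells, as CPM of UMI counts summed over the cells of 3 control samples, with the value printed in each field, colours on a log scale that ends at 1 CPM, and grey for 0. Chga, Chgb, Scg2, Scg5 and Pcsk1 are highest in Neuroendocrine cells. Resp18 peaks at 1275 CPM in Aire-adjacent and Pcsk2 at 31.5 CPM in Aire-expressing cells. Pcsk5 peaks at 238 CPM in Entero-hepato and Cpe at 109 CPM in Keratinocyte cells.

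Among the granins, Chga was at 823, 697 and 638 CPM in Neuroendocrine cells of control samples 1, 2 and 3. The next class, Aire-adjacent, was at 73.3, 40.8 and 122 CPM, so these classes did not overlap. Aire-expressing cells followed at 49.9 ± 8.05 CPM (SD, n = 3), within the spread of Aire-adjacent cells. Chgb was at 507, 387 and 195 CPM in Neuroendocrine cells. Its value in the second class, Ciliated, was 53.9 ± 92.6 CPM (SD, n = 3), a spread larger than the mean, and the highest Ciliated sample, at 161 CPM from a single cell, stayed below every Neuroendocrine one. Scg2 was at 427, 264 and 89.4 CPM in Neuroendocrine cells and at most 7.97 CPM in any control sample of the second class, Aire-expressing. Chgb was also found in 14.4% of 125 Klk-rich cells of both genotypes, at 55.8 CPM and with at most 19 of 92 UMIs in 1 cell. Some other values outside Neuroendocrine cells came from 1 cell: in Klk-rich cells of mutant sample 4 a single cell held all 165 Scg2 UMIs, and in Aire-adjacent cells of control sample 3 a single cell held 127 of 138 Chgb UMIs.

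Scg5, the chaperone of Pcsk2, was spread over several classes. It was at 435 ± 35.9 CPM (SD, n = 3) in Neuroendocrine, 283 ± 121 in Aire-adjacent, 232 ± 33.5 (n = 2) in Entero-hepato and 163 ± 50.8 CPM in Microfold cells of control samples. The first 2 overlapped, since control sample 1 reached 422 CPM in Aire-adjacent cells. Among classes with 10 or more cells in at least 2 control samples, Resp18 was highest in Aire-adjacent cells, at 1158, 1231 and 1326 CPM, above the 669, 1018 and 850 CPM of Neuroendocrine cells in every control sample. Klk-rich cells, of which control samples 1, 2 and 3 had 8, 6 and 33, were at 1338, 2149 and 534 CPM for Resp18, with most UMIs in 3 cells of each sample.

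Of the convertases, Pcsk1 was at 66.5, 85.4 and 62.8 CPM in Neuroendocrine cells of control samples and at most 8.68 CPM in any control sample of the second class, Entero-hepato. Pcsk2 had no clear peak: Entero-hepato (19.8 ± 21.2 CPM, n = 2), Aire-expressing (17.4 ± 21.7, n = 3) and Neuroendocrine cells (16.8 ± 6.46, n = 3) did not differ beyond their spread. A single Aire-expressing cell of control sample 3 held 102 of its 164 Pcsk2 UMIs there. Pcsk5 was highest in Entero-hepato cells at 225 ± 17.5 CPM (n = 2), with 319 CPM in the 8 such cells of control sample 1, and then came Keratinocyte (86.3 ± 15.98) and Immature cells (80.5 ± 29.0), which overlapped. It was lower in Neuroendocrine cells, at 8.32, 18.4 and 13.3 CPM. Cpe was highest in Keratinocyte cells, at 111, 66.4 and 129 CPM, and overlapped Neuroendocrine cells, at 99.8, 61.1 and 61.1 CPM. In Microfold cells Cpe had 0 UMIs in each of the 7 samples.

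Detection within the Neuroendocrine class differed widely between the genes; a cell without a UMI may still express a gene, and the shares fell when cells were thinned. Of 707 such cells, 72.8% had a UMI of Chga, 42.6% of Chgb, 18.4% of Scg2, 89.7% of Scg5 and 74.7% of Resp18. For the enzymes it was 30.7% for Pcsk1, 7.36% for Pcsk2, 8.63% for Pcsk5 and 13.6% for Cpe. Tuft cells, read at a like depth (medians of 12186 UMIs in Tuft and 12224 in Neuroendocrine cells), had a UMI in 4.98%, 1.80% and 0.437% of cells for Chga, Chgb and Scg2 and in 0.194% and 0.510% for Pcsk1 and Pcsk2. Scg5, Resp18 and Cpe were more widely found in Tuft cells, in 26.5%, 17.3% and 6.90%, and Pcsk5 was found in more Tuft (23.2%) than Neuroendocrine cells. With each cell thinned to 5000 UMIs, which left out 511 cells (192 control, 319 mutant), the Neuroendocrine shares were 57.1% for Chga, 74.5% for Scg5, 18.0% for Pcsk1 and 4.93% for Pcsk2; for Pcsk5 they were 4.64% in Neuroendocrine and 13.0% in Tuft cells.

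The 3 granins Chga, Chgb and Scg2 were found together in 66 Neuroendocrine cells, while 132 cells had none of them and 9 cells had none of the 9 genes. The median cell had 3 of the 9, and 185 cells had 5 or more. At least 1 of Pcsk1 and Pcsk2 was found in 250 cells and both in 19: Pcsk1 was found in 36.5% of the 52 cells with Pcsk2 and 30.2% of the 655 without it (median depths of 13543.5 and 12106 UMIs). Cells with Scg2 more often had Pcsk1, 48.5% of 130 against 26.7% of the 577 without Scg2, at median depths of 12245 and 12193 UMIs. Chgb was found in 48.7% of cells with Chga and 26.0% of cells without it (12402 and 11656 UMIs), whereas Resp18 was found in 72.4% of cells with Pcsk1 and 75.7% of cells without it (13217 and 11817.5 UMIs). These cells come from the same 7 samples, and no test was made over cells.

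The rest of the secretory machinery was present in the same class. Of 40 other genes of the regulated secretory pathway, the 5 with the highest CPM in Neuroendocrine cells were the calcium sensor Syt1 (4174 CPM), the granule phosphatase Ptprn2 (1736), the amidating enzyme Pam (1113), the fusion protein Snap25 (612) and Rims2 (508), which organises release sites. Scg3, a further granin, was at 42.7 CPM there against a median of 0.760 CPM over the other classes. Vgf, by contrast, was at 4.90 CPM in Neuroendocrine cells and reached 18.0 CPM in another class. Among the convertases outside the set, Mbtps1 (50.6 CPM), Furin (39.0) and Pcsk7 (23.2) were close to their medians over the other classes (34.98, 32.8 and 16.8 CPM), and Pcsk6 and Pcsk4 were at 2.18 and 1.74 CPM. Of 20 neuroendocrine transcription factors, Rfx3 (523 CPM), Insm1 (338), St18 (328) and Rfx6 (225) were among the most abundant. Of 30 peptide hormones, Iapp gave 11135 UMIs in 214 Neuroendocrine cells, Ghrl 5875 in 65, Calca 3099 in 187, Gcg 456 in 5 and Calcb 443 in 132.

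Genes with the most similar profile over the classes were sought for each member by Pearson's r of log2(CPM + 1) over 15 classes of control cells, among 15566 genes that reached 10 CPM in a class. The classes share 3 samples and 1 run, and rare cells weigh on them, so the values only describe. Nearest to Chga stood Mapk8ip2 (r = 0.94), Myt1 and Pebp4, and nearest to Chgb stood Myt1 (0.95), Scn8a and Tox2. Scg2 was followed by Slc35d3 (0.98), Kcnk16 and Gm11342, Scg5 by 1700042O10Rik (0.91), Gm47523 and Fmnl1, and Resp18 by 1700110K17Rik (0.96), Itga2 and 1700016L21Rik. Pcsk1 was followed by Rdh16f2 (0.94), Gm43490 and Gm47475, and Pcsk2 by Tmprss15 (0.96), Ush1c and Asic2. Pcsk5 had its closest profile at a lower value, Gpr160 (0.78), before Ly75 and Plpp1, and Cpe was followed by Gsdma (0.88), Pdzrn3 and Penk. Within the set, Chga and Chgb had the most similar profiles (0.90), then Scg2 and Pcsk1 (0.85).

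Between genotypes, Scg5 and Pcsk5 fell over all cells and the other 7 genes did not pass. The test was edgeR's quasi-likelihood test on UMI counts summed per sample, with Benjamini-Hochberg adjustment over all genes tested and a threshold of 0.05. All 9 genes entered it, 2 were called and both were lower in the mutant. Of 21187 genes, 0.184% were called in either direction and 0.179% as lower. At an unadjusted p under 0.05 there were 5 of the 9, Chga among them, against 6.65% of all genes. The log2 fold change, mutant over control, was negative for 8 of the 9, with a median of -0.43, against 49.1% of all genes and a median of 0.0038. A sum over all cells cannot tell fewer cells of a type from less RNA per cell. Neuroendocrine cells made up 7.74% ± 1.499 (SD) of the cells of 3 control samples and 7.64% ± 1.41 (SD) of the cells of 4 mutant samples (two-sided exact permutation p = 0.971, where the smallest p that 35 splits can give is 0.0286).

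Scg5 (ENSMUSG00000023236.7, chromosome 2, 113776362 to 113829121, minus strand) was at 79.4, 88.6 and 80.2 CPM over all cells in control samples 1 to 3. Mutant samples 1 to 4 were at 59.7, 56.8, 58.7 and 58.5 CPM. Every mutant sample lay below every control sample, as for 4.77% of all genes tested over all cells. The mutant samples stood close together. On the log2 scale Scg5 fell by 0.49 (SE 0.055; edgeR adjusted p = 0.0374). The call was lost without Entero-hepato cells (-0.44, edgeR adjusted p = 0.0730), which held 6.43% of the control and 0.161% of the mutant Scg5 UMIs, and without Tuft cells (-0.49, 0.121). Leaving out any 1 sample other than control sample 1 also ended it (-0.52 to -0.44, adjusted p of 0.0675 to 0.184).

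Pcsk5 (ENSMUSG00000024713.16, chromosome 19, 17432319 to 17837632, minus strand) was at 58.0, 53.6 and 42.6 CPM in control and 27.4, 26.7, 23.8 and 20.6 CPM in mutant samples over all cells. The groups did not overlap, where 4.77% of all genes tested separated in this direction. Pcsk5 fell by 1.05 on the log2 scale (SE 0.135, edgeR adjusted p = 0.0417). Leaving out Entero-hepato cells ended the call (-0.97, adjusted p = 0.142 in edgeR); those cells held 11.6% of the control and 3.05% of the mutant Pcsk5 UMIs. Leaving out any 1 sample other than control sample 3 ended the call (-1.10 to -0.95, adjusted p of 0.0806 to 0.203).

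Of the genes that did not pass over all cells, Cpe (ENSMUSG00000037852.8, chromosome 8, 64592542 to 64693054, minus strand) was at 23.1, 13.8 and 19.3 CPM in control and 14.2, 8.23, 8.87 and 15.1 CPM in mutant samples, which overlap (log2 fold change -0.68, SE 0.259, edgeR adjusted p = 0.666). Resp18 was at 188 ± 34.2 (SD, n = 3) and 139 ± 15.8 CPM (SD, n = 4), also with overlap (-0.43, adjusted p = 0.507). Chgb (-0.57, adjusted p = 0.892), Pcsk1 (-0.31, 0.952), Pcsk2 (-0.07, 1.00) and Scg2 (-0.03, 1.00) had smaller differences relative to their errors. Chga alone had a positive value (0.84, 0.734); 5 cells, described further on, held 51.2% of its mutant UMIs.

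In Neuroendocrine cells, the class where most of these genes are highest, no member passed edgeR's test, although 0.389% of 11297 genes did in either direction. All 9 entered it. At an unadjusted p under 0.05 there were 2, Cpe and Scg5, against 8.32% of all genes, and DESeq2 called 0. The log2 fold change was negative for 8 of 9, with a median of -0.26, against 49.9% of all genes and a median of 0.00083.

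**Figure D2:**
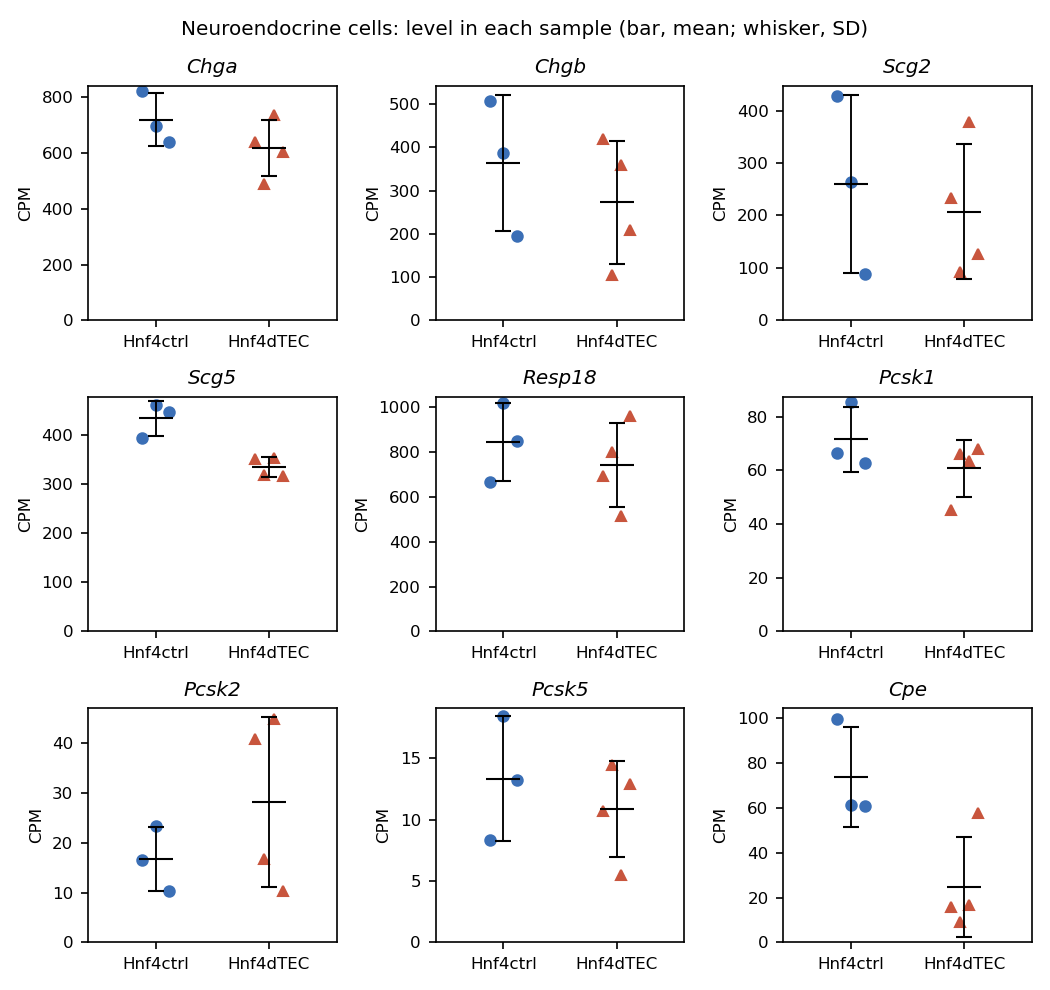
CPM of each of the 9 genes in Neuroendocrine cells, 1 panel per gene with its own axis from 0, with a circle for each of 3 control and a triangle for each of 4 mutant samples, a bar at the mean and whiskers of 1 SD. Scg5 and Cpe are the 2 genes whose mutant samples all lie below the control samples, with 1 mutant sample of Cpe at 57.6 CPM close under the lowest control at 61.1; of all genes tested in these cells, 5.53% separate in this direction.

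The granins overlapped between genotypes. Chga (ENSMUSG00000021194.6, chromosome 12, 102554969 to 102565028, plus strand) was at 823, 697 and 638 CPM in control and 639, 490, 735 and 603 CPM in mutant samples (log2 fold change -0.20, SE 0.129, edgeR adjusted p = 0.750). Chgb (ENSMUSG00000027350.8, chromosome 2, 132781278 to 132795079, plus strand) was at 363 ± 158 (SD, n = 3) and 273 ± 142 CPM (SD, n = 4), giving -0.37 on the log2 scale (SE 0.404, edgeR adjusted p = 0.885). Scg2 (ENSMUSG00000050711.7, chromosome 1, 79434669 to 79440120, minus strand) was at 260.2 ± 169 and 208 ± 128 CPM (-0.26, SE 0.506, adjusted p = 0.953). For both Chgb and Scg2 the samples of 1 genotype differed by more than the genotypes did. In control sample 1 a single cell held 144 of 305 Chgb UMIs.

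Scg5 was at 394, 463 and 447 CPM in control and 352, 319, 354 and 316 CPM in mutant Neuroendocrine cells. The groups did not overlap, where 5.53% of all genes tested separated in this direction. The gene did not pass (log2 fold change -0.36, SE 0.093, edgeR adjusted p = 0.175). Resp18 (ENSMUSG00000033061.15, chromosome 1, 75272199 to 75278415, minus strand) was at 846 ± 175 and 742 ± 187 CPM, with overlap (-0.17, adjusted p = 0.888). Its gene overlaps Gm28902 on the other strand.

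Among the enzymes, Pcsk1 (ENSMUSG00000021587.5, chromosome 13, 75089826 to 75134861, plus strand) was at 66.5, 85.4 and 62.8 CPM in control and 45.2, 66.1, 63.6 and 68.1 CPM in mutant samples (log2 fold change -0.22, SE 0.172, edgeR adjusted p = 0.826). Pcsk2 (ENSMUSG00000027419.9, chromosome 2, 143546156 to 143816285, plus strand) was the 1 gene with a positive value. It was at 16.6, 23.3 and 10.4 CPM in control and 40.8, 16.7, 44.8 and 10.4 CPM in mutant samples, so mutant samples 1 and 3 were high and the others lay among the controls (0.82, SE 0.503, adjusted p = 0.726). Those values rest on 52 UMIs in control and 161 in mutant samples, and Pcsk2 overlaps Pcsk2os1 and Pcsk2os2 on the other strand. Pcsk5 was at 13.3 ± 5.06 and 10.9 ± 3.90 CPM (-0.32, adjusted p = 0.892).

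Cpe had the largest difference in these cells. It was at 99.8, 61.1 and 61.1 CPM in control samples (60, 63 and 106 UMIs) and at 15.7, 9.12, 16.5 and 57.6 CPM in mutant samples (25, 12, 21 and 94 UMIs). Mutant sample 4 stood apart from the other 3, near the controls. The difference, -1.46 on the log2 scale (SE 0.464), did not pass (edgeR adjusted p = 0.336). Without mutant sample 4 it was -2.34 and passed (edgeR adjusted p = 0.00427). That sample was singled out by its value, so this is no independent test. In control sample 1 a single cell held 41 of the 60 UMIs. Fibroblast markers summed to 131 CPM in these cells of control sample 1 and to at most 13.2 CPM in the other 6 samples; 76 of the 79 UMIs behind that value lay in 1 cell, which had 0 UMIs of Cpe.

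In Tuft cells, the most abundant class, Pcsk5 fell and no other member passed. Of the 9 genes 6 passed the filter on low counts and 1 was called, against 0.0881% of 14760 genes in either direction and 0.0678% as lower. The other 3, Scg2, Pcsk1 and Pcsk2, had 18, 8 and 23 UMIs in all Tuft cells. At an unadjusted p under 0.05 there were 5 of the 6 tested, against 8.74% of all genes. Chga was among these 5, and most of its mutant UMIs there lay in cells rich in Pth, described further on. Pcsk5 was at 65.1, 65.6 and 44.0 CPM in control samples and 28.6, 27.8, 29.7 and 21.4 CPM in mutant samples. The groups did not overlap, where 4.23% of all genes tested in Tuft cells separated in this direction. Control sample 3 was the lowest control. Pcsk5 fell by 1.10 on the log2 scale (SE 0.144; edgeR adjusted p = 0.0207), and the call was lost without control sample 1 or 2 or mutant sample 1 or 2 (-1.13 to -1.003, adjusted p of 0.0796 to 0.162).

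The other members in Tuft cells gave smaller or less certain differences. Scg5 was at 38.9 ± 2.58 (SD, n = 3) and 30.9 ± 1.72 CPM (SD, n = 4) without overlap (-0.33, SE 0.075, edgeR adjusted p = 0.183). Resp18 was at 78.0 ± 15.2 and 52.8 ± 16.9 CPM with overlap (-0.58, adjusted p = 0.470). Cpe was the reverse of Neuroendocrine cells in sign. Control samples, at 6.98, 5.56 and 7.68 CPM, lay below mutant samples, at 11.6, 9.41, 8.35 and 14.1 CPM. The gene did not pass (0.66, SE 0.208, edgeR adjusted p = 0.381). Of all genes tested in Tuft cells, 8.96% had no overlap, in either direction.

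Whether the genotype effect differed between Tuft and Neuroendocrine cells was tested with an interaction term in edgeR, with the sample as a block. All 9 genes were tested and 0 were called, with 3 at an unadjusted p under 0.05 (Cpe, Pcsk2 and Chga), where 0.0265% of 15099 genes were called and 6.603% had such an unadjusted p; no other tool was run on this term. Cpe had the lowest adjusted p, with an effect in Tuft cells higher by 2.33 on the log2 scale (SE 0.408, edgeR adjusted p = 0.0957), and passed without mutant sample 4 (2.88, adjusted p = 0.0120). For Pcsk5 the difference was -0.73 (SE 0.368, adjusted p = 0.793), so the call in Tuft cells and its absence in Neuroendocrine cells, where the gene gave 111 UMIs, were not shown to differ.

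**Figure D3:**
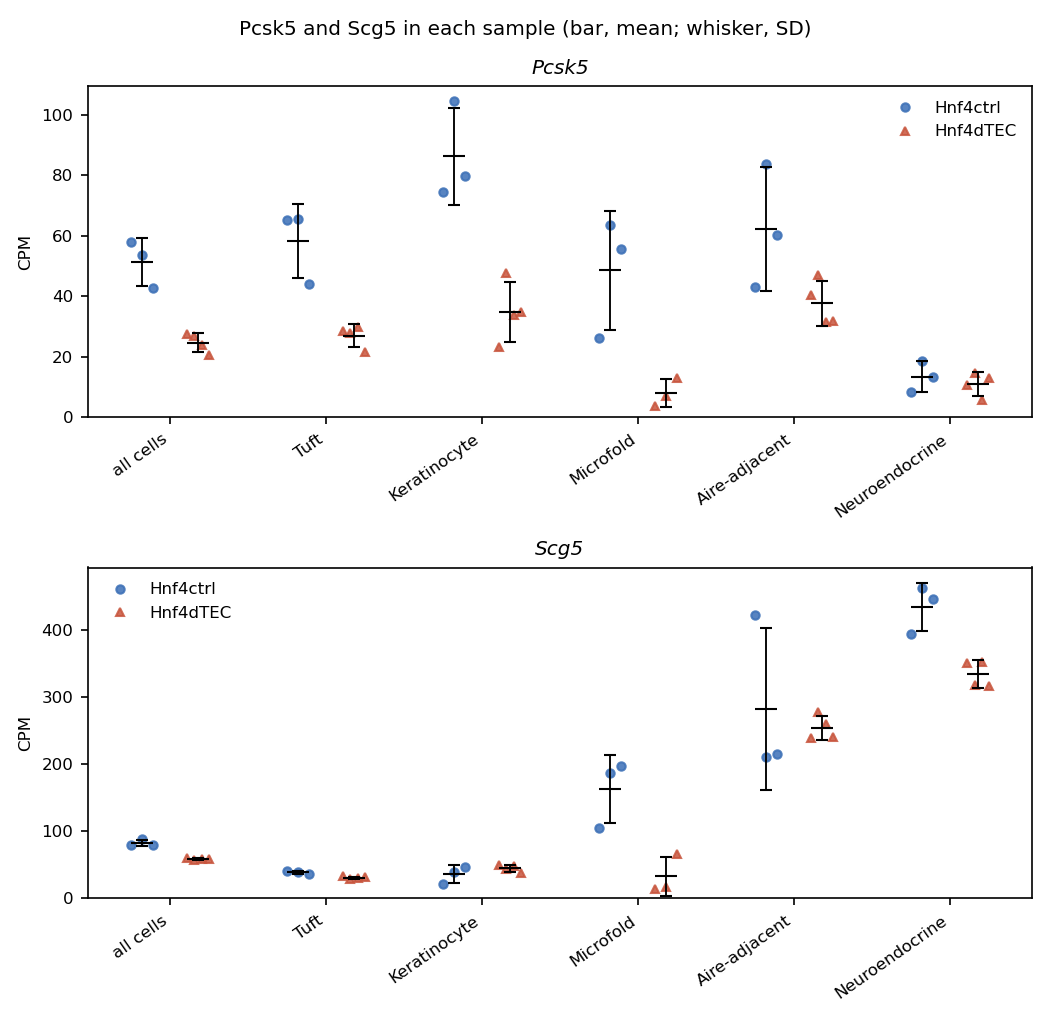
CPM of Pcsk5 (upper panel) and Scg5 (lower panel) in all cells and in 5 classes, with a circle per control and a triangle per mutant sample with at least 10 cells of the class, a bar at the mean and whiskers of 1 SD. In Tuft cells the mutant samples of Pcsk5 sit between 21.4 and 29.7 CPM, below controls from 44.0 CPM upward. In Microfold cells the mutant samples of Scg5 sit between 14.4 and 67.1 CPM, below controls from 105 CPM upward. Of all genes tested, 4.23% separate in this direction in Tuft and 10.3% in Microfold cells.

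Pcsk5 had a negative log2 fold change in 9 of 10 classes in which it could be tested, TA being the exception (0.14), and Tuft was the 1 class where it passed. In Keratinocyte cells, where 4 members were tested, 0 were called and 2 had an unadjusted p under 0.05, as did 7.30% of all genes, edgeR called 0.0799% of 11267 genes. Pcsk5 there was at 74.5, 104 and 79.7 CPM in control and 23.3, 47.5, 33.8 and 34.6 CPM in mutant samples. The groups did not overlap, where 3.39% of all genes tested separated in this direction. The gene did not pass edgeR's test (-1.33, SE 0.216, adjusted p = 0.0763), though it passed DESeq2 (adjusted p = 0.000270). In Aire-expressing cells Pcsk5 was at 68.7, 29.9 and 23.7 CPM in control and 16.7, 13.4, 6.16 and 16.5 CPM in mutant samples. There was again no overlap, where 3.68% of all genes tested separated in this direction. Pcsk5 was not past the threshold there (-1.48, edgeR adjusted p = 0.784). Entero-hepato cells, the class with the highest level, were too few in the mutant for a test: the 3 mutant cells held 64 Pcsk5 UMIs, all in the 2 cells of mutant sample 1.

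Scg5 fell in Microfold cells, named for the antigen-sampling cells of the gut lining. Here 2 members passed the filter on low counts and 1 was called, against 3.03% of 4656 genes in either direction and 2.34% as lower, and mutant sample 4, with 8 cells of the class, was not used. Scg5 was at 105, 187 and 198 CPM in control samples 1 to 3 (28, 56 and 103 UMIs from 18, 25 and 33 cells). Mutant samples 1 to 3 were at 14.4, 17.5 and 67.1 CPM (4, 5 and 21 UMIs from 20, 22 and 26 cells). The groups did not overlap, and 10.3% of all genes tested in the class separated in this direction. Mutant sample 3 was the highest of the mutant ones. Scg5 fell by 2.33 on the log2 scale (SE 0.496; edgeR adjusted p = 0.0337), a call lost without control sample 2 or 3 or mutant sample 1 or 2 (adjusted p up to 0.128). Markers of myeloid and B cells summed to 342 to 1721 CPM in control and 343 to 709 CPM in mutant samples in this class, and their part in the result was not tested.

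Resp18 in Microfold cells did not pass (-1.93, SE 1.02, edgeR adjusted p = 0.378), with 84 UMIs in control and 16 in mutant samples. Pcsk5 was below the filter there, at 26.3, 63.6 and 55.7 CPM in control and 3.59, 6.99 and 12.8 CPM in mutant samples. It therefore had no test in the main fit. With control sample 1 left out it entered the test and was called (-2.91, edgeR adjusted p = 0.0362). Of the lists around the secretory pathway, Microfold cells were the 1 class with calls. Syt7, a calcium sensor of lysosome and granule release, fell from 51.7 ± 4.47 to 9.08 ± 1.71 CPM (SD, n = 3 each; -2.51, edgeR adjusted p = 0.0145). Isl1, a homeodomain factor of endocrine and nerve cells, fell by 2.58 on the log2 scale, from 41.6 ± 4.79 to 6.69 ± 5.81 CPM (adjusted p = 0.0463 in edgeR).

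The lists as wholes stood near all genes over all cells. The regulated secretory pathway had 39 of 40 genes tested and 0 called, with a median log2 fold change of -0.06 against 0.0038 over all genes. The other convertases had 5 of 6 tested (-0.04), the peptide hormones 27 of 30 (0.08) and the neuroendocrine transcription factors 15 of 20 (-0.13), each with 0 called. In Neuroendocrine cells 0 of 30 secretory, 3 convertase, 8 hormone and 12 transcription factor genes tested were called, with medians of -0.06, 0.02, 0.04 and -0.36.

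**Figure D4:**
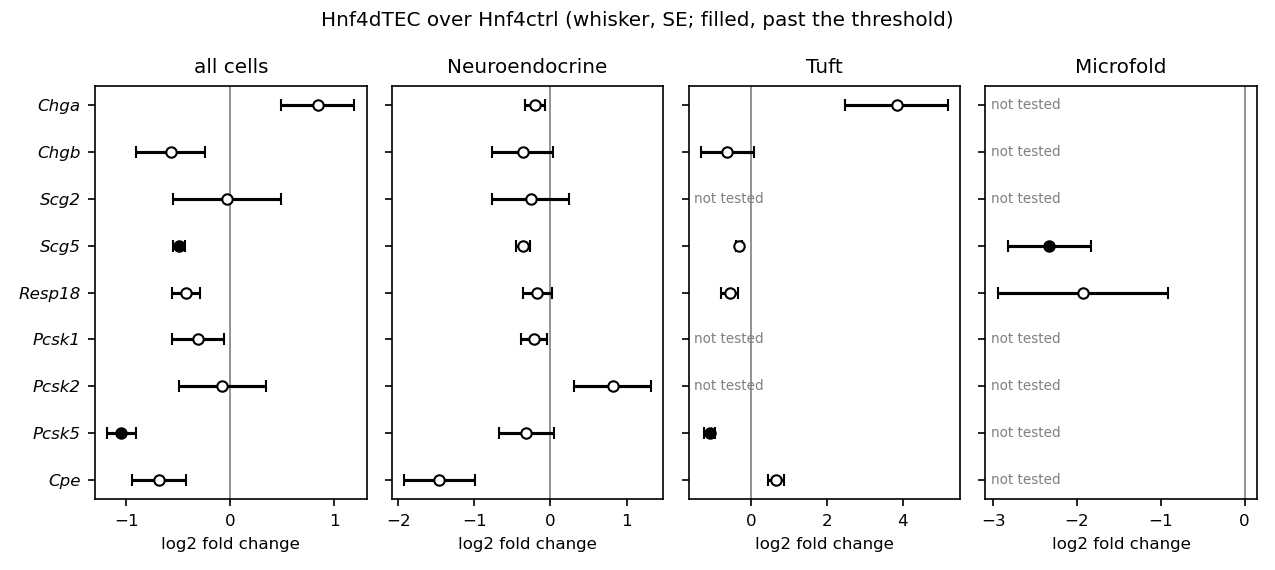
Log2 fold change of mutant over control (horizontal axis) for each of the 9 genes in 4 sets of cells, from edgeR, with whiskers of 1 SE, filled symbols for genes past the adjusted threshold of 0.05 and a note where a gene did not pass the filter on low counts. The filled symbols are Scg5 and Pcsk5 in all cells, Pcsk5 in Tuft and Scg5 in Microfold cells, and the axes differ between panels.

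Chga over all cells was at 59.4, 68.8 and 62.2 CPM in control and 99.7, 108, 187 and 56.3 CPM in mutant samples. Of its 12556 UMIs, 4861 (38.7%) lay in 5 cells, each with 362 to 1494 Chga UMIs. The same 5 cells held 1821 to 11792 UMIs of Pth, parathyroid hormone, which was 10.3% to 39.1% of all their UMIs, while no other annotated cell had more than 136. All 5 came from mutant samples, 2 from sample 1, 1 from sample 2 and 2 from sample 3. They also had UMIs of Casr, the calcium-sensing receptor (2 to 17), and of Kl, Klotho (9 to 29), and 4 of them of the transcription factors Gata3 and Gcm2. The authors' table places 4 of them in the Tuft and 1 in the TA class. Of the 6 tuft markers, 3 of the 4 Tuft cells had 0 or 1 UMI in all, so these 3 go against their class label, and the other had 111 UMIs together with a further hash tag at 31.8% of its hash UMIs. In the other 4 the further tag took 7.26% to 23.4%.

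These cells carried Chga with almost none of the other secretory genes followed here. Chgb, Scg2, Pcsk1, Pcsk2, Pcsk5 and Cpe had 0 UMIs in each of the 5, and Scg5 and Resp18 had at most 3 and 1. Of the convertases outside the set, Furin had 0 to 2 UMIs per cell. In Tuft cells of the mutant they held 95.4% of Chga UMIs and in TA cells 95.6%.

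Without the 5 cells, Chga over all cells was at 54.9, 45.3, 61.3 and 56.3 CPM in mutant samples 1 to 4, below or among the controls. The log2 fold change went from 0.84 (SE 0.352) to -0.21 (SE 0.103), and neither passed (edgeR adjusted p = 0.734 and 0.832). In Tuft cells it went from 3.84 (SE 1.35, adjusted p = 0.440) to -0.52 (SE 0.386, adjusted p = 0.757), and in TA cells from 4.66 (SE 1.83, adjusted p = 1.00) to -0.21 (SE 0.523, adjusted p = 1.00). The share of Chga UMIs from Neuroendocrine cells went from 47.0% to 76.7%. This setting was chosen after the values were seen, and whether the number of such cells differs between genotypes was not tested.

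**Figure D5:**
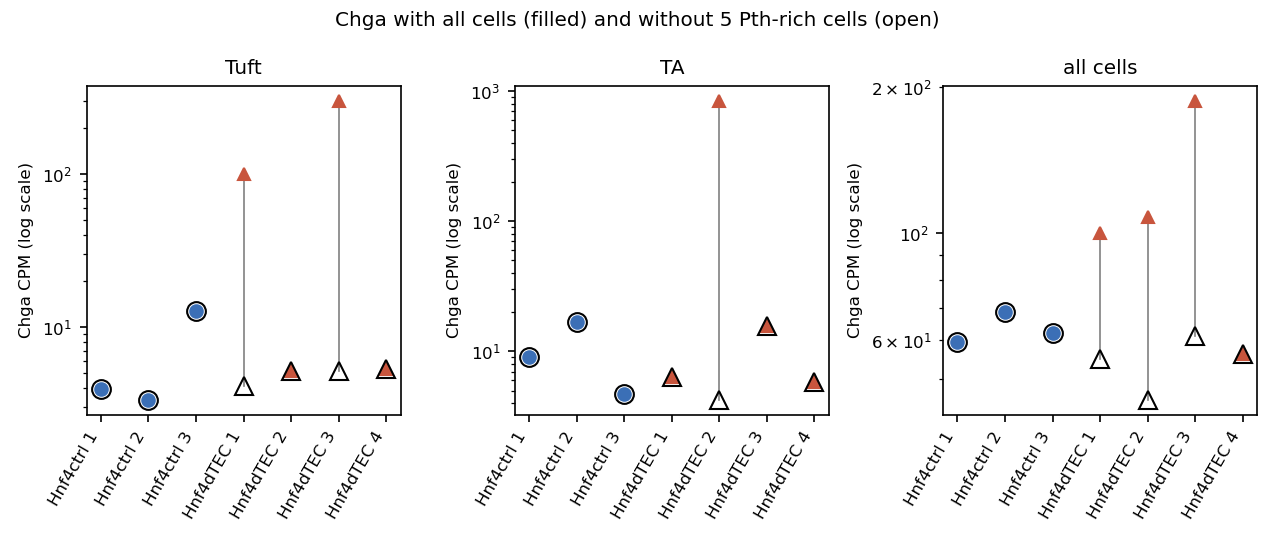
Chga CPM (log axis) in each sample in Tuft cells, TA cells and all cells, with filled symbols for all cells and open symbols without the 5 Pth-rich cells, circles for control and triangles for mutant samples, joined by a line where they differ. In Tuft cells mutant samples 1 and 3 drop from 100.5 and 302 CPM to 4.13 and 5.18 CPM, into the range of the other samples.

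In the remaining classes no member passed. The share of genes called in either direction was 0.0314% in Secretory cells and 0% in Aire-adjacent, Aire-expressing, Ciliated, Immature, TA and Transitional cells. Of the members 4, 8, 2, 2, 4 and 2 entered the test in those 6 classes and 3 in Secretory cells. At an unadjusted p under 0.05 there was 1 each in Aire-adjacent, Aire-expressing, Ciliated, TA and Secretory cells and 0 in Immature and Transitional cells, against 2.65% to 6.67% of all genes; DESeq2 called 0 in these 7 classes. Resp18 in Aire-adjacent cells, its highest class, was at 1239 ± 84.4 (SD, n = 3) and 1024 ± 141 CPM (SD, n = 4) without overlap (-0.29, SE 0.141, edgeR adjusted p = 0.922). Of all genes tested there, 3.15% separated in this direction. Resp18 had a negative value in each of the 9 classes tested, with 0 calls. In Secretory cells Scg5 had a positive value (1.44, SE 0.627, adjusted p = 0.746) at 0, 5.28 and 7.57 CPM in control and 5.65, 16.8, 17.8 and 21.7 CPM in mutant samples. Entero-hepato, Klk-rich, Muscle and Ionocyte cells had too few samples with 10 cells for a test.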

How the data were processed

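Single-cell RNA of 7 hash-tagged samples was read in 1 run. The deposited matrix holds UMI counts per gene and barcode as whole numbers. Per the submitters' processing notes the tools were Seurat 4.0.2 and Cell Ranger 6.1.0, on mm10; the matrix header names Cell Ranger 7.0.0. The authors' cell table gave 9185 of 18089 barcodes a sample and a class, by means of which counts were summed per sample and class. All these cells were kept and no doublet caller was run; leaving out 293 cells with another hash tag at 20% or more of hash UMIs served as an alternative, which misses doublets of 1 sample. Sums were tested with edgeR 4.0.16 (filterByExpr, TMM, quasi-likelihood, Benjamini-Hochberg over all genes) where at least 3 samples per genotype had 10 or more cells; DESeq2 1.42.0 was an alternative. The code was tested on simulated counts. No sample copied another (chi-square per degree of freedom at least 5.64). Intervals cover counting error only. All 9 members were named in each comparison they entered; of the other lists, genes past the threshold and the 5 most abundant in Neuroendocrine cells; and for each member the 3 most similar profiles. Some genes that this rule selects are not reported here. The members, lists and alternatives were chosen with earlier results of these data known. Pcsk6, Pcsk4, Scg3, Vgf and genes of the Pth-rich cells were named after their values were seen. Gene positions are from GENCODE on mm10 (54435 of 55487 identifiers matched).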

Additional observations from a re-analysis of the deposited data

Results flagged for a closer look

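Among 53 groups of 4 mutant samples (a member in a class or over all cells), 4 had 1 sample whose distance from the others exceeded the 95% limit of Dixon's test. Chance flags about 1 in 20 such groups if values are normally distributed, which was not checked here. The 3 control samples were too few for this rule, so only mutant samples could be flagged. Chga in TA cells was at 843 CPM in mutant sample 2 against 5.78, 6.38 and 15.6 CPM in the other mutant samples, and 1 cell rich in Pth held 1213 of its 1219 UMIs. Scg2 in Aire-expressing cells was at 38.2 CPM in mutant sample 4 against 0.607, 1.32 and 4.44 CPM, with 85.8% of 127 UMIs in 3 cells. Pcsk5 in Ciliated cells was at 18.3 CPM in mutant sample 2 against 12.6, 12.9 and 13.5 CPM, values that rest on 9 to 13 UMIs per sample. Cpe in Neuroendocrine cells was at 57.6 CPM in mutant sample 4 against 9.12, 15.7 and 16.5 CPM.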

How the results depend on the processing

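Counts of members past the threshold were small and moved with single samples. Over all cells 2 were called, 0 with a replicate block, 0 without Entero-hepato cells, 1 without Tuft cells and 0 to 1 with 1 sample left out; DESeq2, another normalization and the other settings gave 2. In Neuroendocrine cells 0 became 1 (Cpe) with no filter on low counts or with the replicate block (-2.39, edgeR adjusted p = 0.00526), and 0 to 1 with 1 sample left out. In Tuft cells 1 became 4 with no filter and 2 with the replicate block, which added Chga (4.24, adjusted p = 0.00892), and 0 to 1 with 1 sample left out. In the other classes 1 became 2 with DESeq2 (Pcsk5 in Keratinocyte cells), 10 with no filter and 0 to 2 with 1 sample left out. For the interaction 0 became 0 to 1 with 1 sample left out. The cause was not tested. Chga in Tuft cells passed both with no filter and with the replicate block, although 4 cells held 95.4% of its mutant UMIs there. Calls with no filter, and the call of Chga with the block, are therefore not relied on. The share of Neuroendocrine cells gave no call under any setting, with differences of -0.92 to 0.56 percentage points with 1 sample left out. No value called in the main fit changed sign. Chga in Tuft cells, called only under alternative settings, was at -0.52 on the log2 scale without the cells rich in Pth. The block used replicate numbers that the labels give to both genotypes without saying that they share anything. Samples with the same number had correlations of deviations of 0.45, 0.17 and -0.08 over 10361 genes. Samples of the 2 genotypes with different numbers had values from -0.64 to 0.68. These few values cannot show whether the numbers pair the samples. Genes with few UMIs per sample, such as Pcsk2, Scg2 outside Neuroendocrine cells, and Microfold cells, limit what this depth can show.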
